A study of Danio rerio with 12 samples.

Results

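Cytosolic ribosomal proteins are the protein parts of the ribosomes that translate messenger RNA outside the mitochondria. A ribosome has a small subunit, which reads the messenger RNA, and a large subunit, which joins the amino acids, and most of the proteins are built into each particle as a single copy. Their messenger RNAs are abundant in nearly all cells, begin with a run of pyrimidines, and are translated under the control of the mTOR pathway, which ties their synthesis to growth. In the growing eye of a fish the demand for ribosomes is tied to the dividing cells at the retinal margin and to the lifelong synthesis of photoreceptor membrane and lens protein.

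The genes were taken from the array by symbol: those beginning rpl, rplp or rps followed by a digit, and rpsa, with the rps6k kinases left out. This gave 70 genes of the 19260 genes that had a probe set carrying a single symbol, 40 for the large and 30 for the small subunit. Of these, 67 were bright enough to be tested (38 large, 29 small) among 14002 genes tested in all. The symbols are those of the platform's annotation, and all 70 match RefSeq genes (assembly GRCz12tu, consulted for names alone). A catalogue of 86 zebrafish ribosomal protein symbols, written with earlier results of these data known, had 68 entries among the 70 genes and 18 that were not. Of the 18, 7 were found on probe sets that list another gene as well. The symbol rule also took 2 genes outside that catalogue, rpl7l1, a paralogue of rpl7, and rps27l, a paralogue of rps27.

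Messenger RNA was measured in whole eyes of zebrafish of 2 genotypes at 2 ages, on 12 arrays that each held the labelled RNA of a pool. The groups were mmachc mutant eyes at 28 days post fertilization (dpf), mmachc heterozygous eyes at 28 dpf, mmachc mutant eyes at 7 dpf and mmachc heterozygous eyes at 7 dpf, with 3 arrays each. The titles call the mutants homozygous, so the comparison eyes carry a mutant copy too and are not wild type. The mmachc product processes vitamin B12 inside the cell. The sources used here do not state the mutation, the number of fish per pool or their clutches, so p-values here cover the spread between these pools alone, which may be technical.

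Within each group the arrays were alike over genes, with correlations of 0.989 to 0.994, and there were 0 pairs of identical arrays among the 12. Photoreceptor markers (11 of 13 on the array, all bright) averaged 11.74 to 11.81 log2 units in mutant eyes and 11.74 to 11.82 in heterozygous eyes at 28 dpf, and 11.51 to 11.57 in mutant eyes and 11.65 to 11.67 in heterozygous eyes at 7 dpf. Lens markers lay between 11.49 and 11.93 on all arrays, while 2 of 8 liver and gut markers reached the level set for testing. Levels of probe sets for different genes are not comparable on this array, and only differences of the same probe set between groups are read below.

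At 28 dpf, 17 of the 67 ribosomal protein genes were higher in mutant than in heterozygous eyes and 3 were lower, while 47 did not pass (limma, adjusted p under 0.05 over all genes tested). These shares, 25.4% and 4.48%, stand beside 21.8% of all tested genes that rose and 39.0% that fell. The share of rises was thus near the background, and the share of falls was far under it. The median difference of the ribosomal protein genes was 0.07 on the log2 scale, against -0.09 over all genes, and single genes ran between -0.48 and 0.51. Both subunits had this pattern, with 9 rises and 1 fall among 38 large-subunit genes (median 0.06) and 8 rises and 2 falls among 29 small-subunit genes (median 0.07). Together the 20 calls compare with 60.8% of all genes called. The 3 mutant arrays lay wholly above the 3 heterozygous arrays for 20 genes and wholly below for 4, where 23.6% and 40.8% of all genes did so (64.4% in either direction).

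The choice of scale matters for these counts. On the deposited scale the median named probe set was 7.02 to 7.04 on mutant arrays and 7.22 to 7.24 on heterozygous arrays at 28 dpf. Setting each array's median named probe set to a common value moved the median of all genes by 0.20 on the log2 scale in this comparison, and raised the share of rises among all calls to 64.01%, against 35.84% as deposited. On that scale 52 ribosomal protein genes rose (77.6%) and 1 fell (1.49%), against 41.7% and 23.5% of all genes. Their median was then 0.27 against 0.11, all 17 rises on the deposited scale were among the 52, and the fall was rps8b. The 14 genes that did not pass included rps13, rps7, rps19, rpl34, rpl9 and rpl36a.

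**Figure D1:**
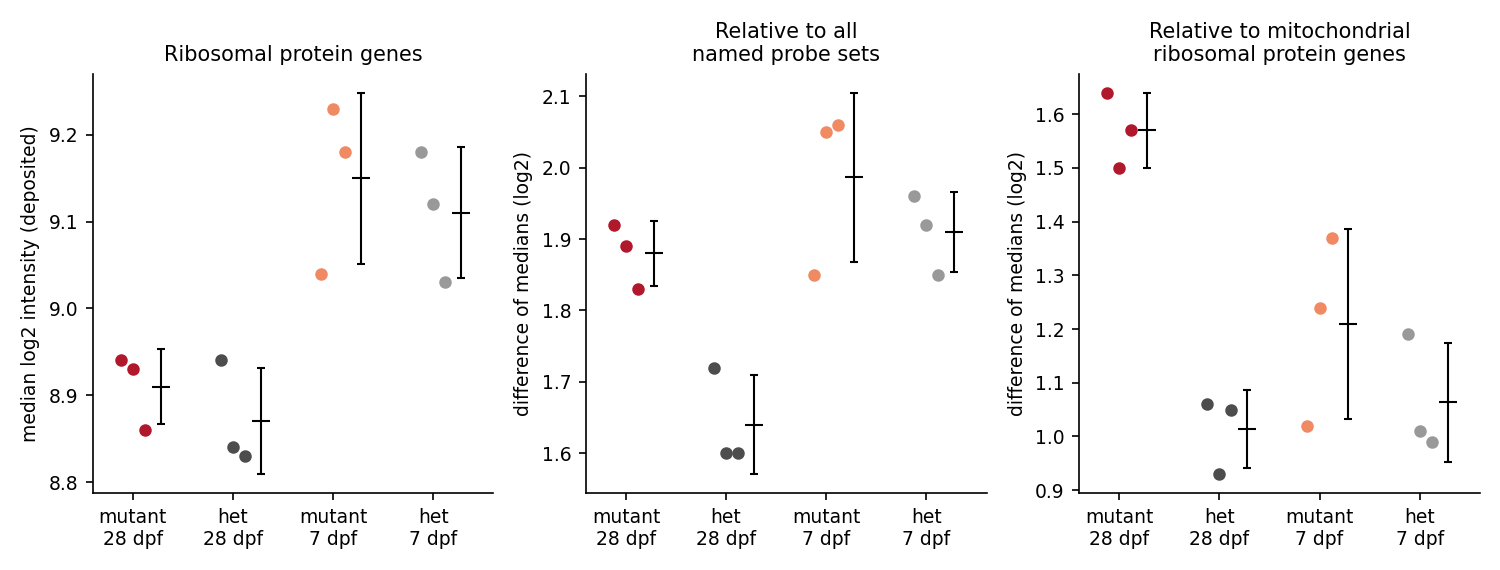
Median log2 intensity of the 67 ribosomal protein genes on each array (left), the same minus the array's median named probe set (middle) and minus the median of the mitochondrial ribosomal protein genes (right). Points are arrays, and bars give mean and SD of 3 arrays. As deposited, the genotypes overlap at both ages, and relative to either yardstick the 28 dpf mutant arrays lie above the 28 dpf heterozygous arrays. Both yardsticks were themselves lower on mutant than on heterozygous arrays at 28 dpf.

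The same can be read array by array. The median ribosomal protein gene stood at 8.94, 8.93 and 8.86 on the mutant arrays of 28 dpf, against 8.94, 8.84 and 8.83 on the heterozygous arrays, which overlap. Relative to the array's median named probe set it stood 1.92, 1.89 and 1.83 higher on mutant arrays, against 1.72, 1.60 and 1.60 on heterozygous arrays, and here the groups did not overlap. Relative to the median mitochondrial ribosomal protein gene it stood 1.64, 1.5 and 1.57 higher on mutant arrays, against 1.06, 0.93 and 1.05 on heterozygous arrays. That mitochondrial median was itself lower, at 7.30, 7.44 and 7.29 on mutant arrays, against 7.88, 7.91 and 7.78 on heterozygous arrays. The median named probe set was lower on mutant arrays too, as given above. These are medians over unlike probe sets, so their change between arrays is what can be read. In whole eyes, fewer cells of a type and less RNA per cell cannot be told apart.

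The largest rise at 28 dpf was that of rps27.1, a zinc-finger protein of the small subunit. It stood at 8.17, 7.92 and 8.03 in mutant eyes, against 7.61, 7.46 and 7.53 in heterozygous eyes. Every mutant array was above every heterozygous one, with means of 8.04 ± 0.13 in mutant eyes and 7.53 ± 0.08 in heterozygous eyes (SD, n = 3 each). The limma difference was 0.51 ± 0.10 (SE), or 1.42-fold, with adjusted p = 3.9e-04. Its paralogue rps27.2 stood at 7.78, 7.58 and 7.65 in mutant eyes, against 7.42, 7.34 and 7.49 in heterozygous eyes, and rose by 0.25 ± 0.09 (adjusted p = 0.0195), with groups that did not overlap. With the mean over its probe sets, rps27.2 had 0.10 (adjusted p = 0.383). Its second probe set averaged 4.92, under the level set for testing.

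A pair of acidic proteins of the stalk, the flexible arm of the large subunit that recruits the translation factors, rose at 28 dpf as well. Rplp1 stood at 9.31, 9.14 and 8.97 in mutant eyes, against 8.83, 8.61 and 8.90 in heterozygous eyes, a difference of 0.36 ± 0.10 (adjusted p = 0.00747). Rplp2 rose by 0.23 ± 0.09 (adjusted p = 0.0358), and had 0.15 (adjusted p = 0.188) without heterozygous replicate 3 of 28 dpf. The third stalk gene, rplp2b, had a difference of 0.19 ± 0.09 with adjusted p = 0.0664, and all 3 stalk genes rose after centring on the named probe sets. Rplp0, which anchors the stalk, was not analysed here.

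Rps26, which lines the channel by which messenger RNA leaves the small subunit, stood at 10.04, 10.36 and 10.20 in mutant eyes, against 9.99, 9.74 and 9.98 in heterozygous eyes, and rose by 0.30 ± 0.09 (adjusted p = 0.00738). Its paralogue rps26l had closer replicates, at 10.51, 10.46 and 10.43 in mutant eyes, against 10.27, 10.21 and 10.27 in heterozygous eyes. That difference was 0.22 ± 0.05 (adjusted p = 0.0023), and the groups did not overlap. With the mean over its probe sets in place of the brightest, rps26l had 0.09 (adjusted p = 0.39). Its second probe set averaged 5.36, under the level set for testing. Without heterozygous replicate 2 of 28 dpf the value of rps26 was 0.22 with adjusted p = 0.0501.

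The other rises were smaller. The dim probe set of rpl7a rose by 0.27 ± 0.11, rpl28 by 0.24 ± 0.08, rpl27a by 0.23 ± 0.06 and rps20 by 0.23 ± 0.08, with limma adjusted p of 0.0413, 0.0132, 0.00446 and 0.0204 in that order. The rises of rpl7a, rpl28, rps20, rps27.2 and rplp2 each lost their call when some array was left out: without mutant replicate 1 of 28 dpf rpl28 stood at 0.21, rps27.2 at 0.19, rps20 at 0.22 and rplp2 at 0.21, and without heterozygous replicate 1 rpl7a stood at 0.16. At lower values, rpl18, rps15, rpl19, rps14, rps27a (made as a fusion with ubiquitin), rpl15 and rpl6 rose by 0.12 to 0.22. Of the 17 rises, 6 kept their call whichever of the 12 arrays was left out: rps27.1, rplp1, rps26l, rpl27a, rps15 and rpl19. The count of rises was 10 without mutant replicate 1 and 11 without mutant replicate 2 of 28 dpf.

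**Figure D2:**
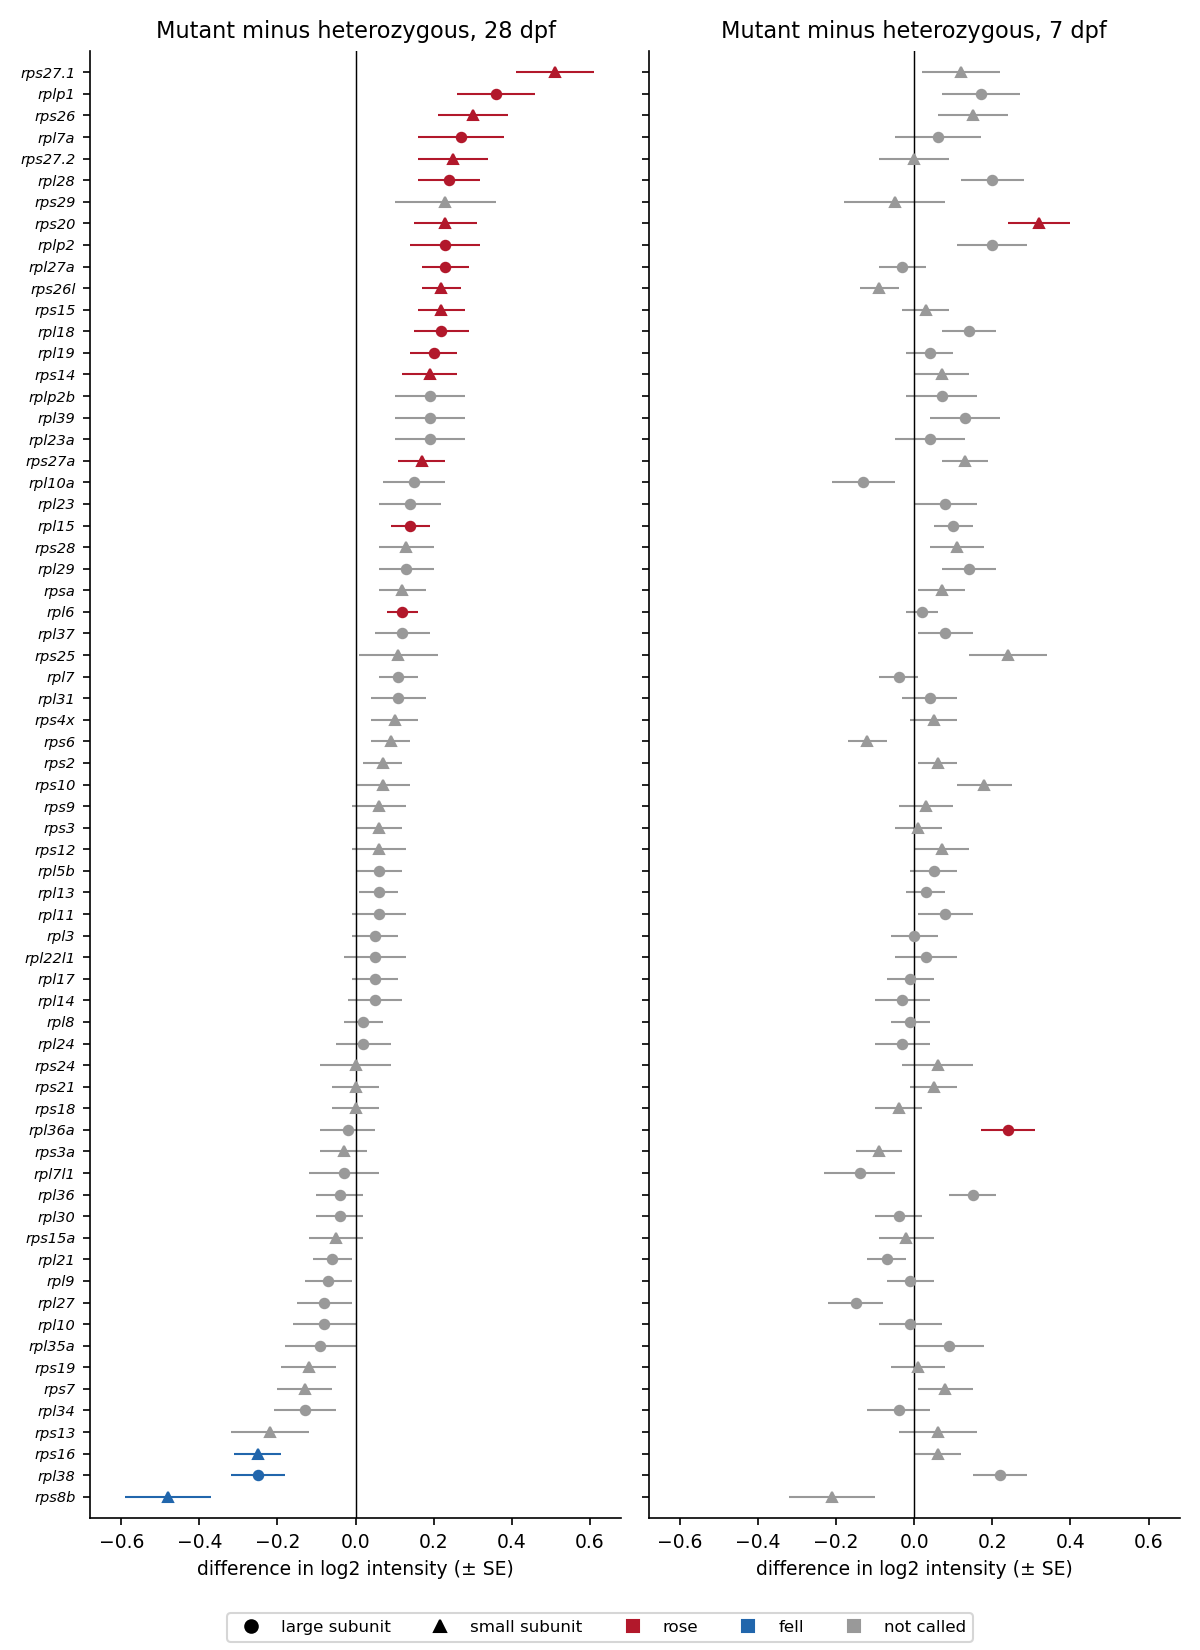
Difference in log2 intensity, mutant minus heterozygous eyes, for each of the 67 ribosomal protein genes at 28 dpf (left) and 7 dpf (right), with standard errors. Genes run down the page by their 28 dpf difference, circles are large-subunit and triangles small-subunit genes, and colour gives the call. At 28 dpf 17 genes rose and 3 fell, and at 7 dpf 2 rose and 0 fell.

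There were 3 ribosomal protein genes that ran the other way at 28 dpf. Rps8b, a protein of the body of the small subunit, stood at 8.64, 8.16 and 8.36 in mutant eyes, against 8.98, 8.84 and 8.77 in heterozygous eyes. It fell by 0.48 on the log2 scale with an SE of 0.11 (adjusted p = 0.00153), and no mutant array reached a heterozygous one. Its copy rps8a was not analysed here.

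Rpl38, a large-subunit protein that mouse embryos need for the translation of some Hox messenger RNAs, stood at 7.64, 7.59 and 7.53 in mutant eyes, against 7.71, 7.84 and 7.96 in heterozygous eyes. Rps16, a protein of the head of the small subunit whose tail touches the transfer RNA, stood at 8.94, 8.93 and 8.90 in mutant eyes, against 9.14, 9.20 and 9.18 in heterozygous eyes. The differences were -0.25 ± 0.07 (adjusted p = 0.00572) and -0.25 ± 0.06 (adjusted p = 0.00121), and neither pair of groups overlapped. All 3 falls kept their call whichever array was left out. After centring on the named probe sets rps8b was lower by -0.28 (adjusted p = 0.0358) with groups that overlapped, while rpl38 stood at -0.05 (adjusted p = 0.526) and rps16 at -0.05 (adjusted p = 0.408).

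Members were also set against each other, with each array centred on its own median ribosomal protein gene. On that scale rps27.1 rose by 0.46, rplp1 by 0.32 and rps26 by 0.25 in mutant eyes of 28 dpf, while rps8b fell by 0.52, rpl38 by 0.29 and rps16 by 0.29. The other 61 tested genes did not pass. Over all genes 14.3% rose and 38.2% fell on that scale. The centring takes out what the ribosomal protein genes share on an array, which favours few calls among them. These shares are therefore not a like comparison.

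**Figure D3:**
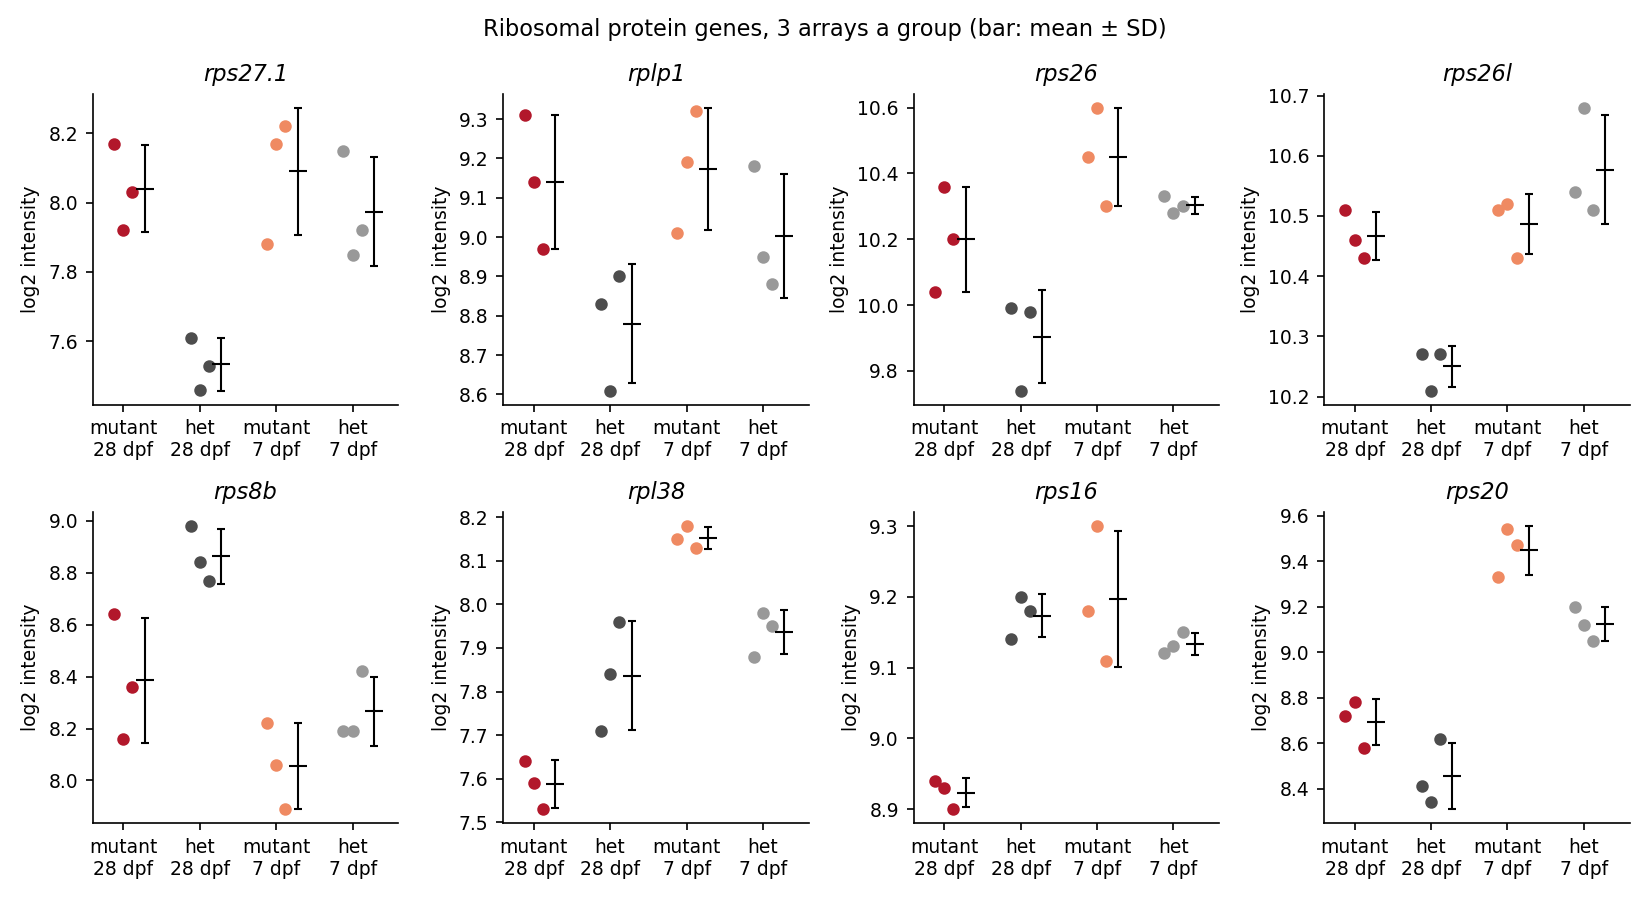
Log2 intensity on each array for 8 ribosomal protein genes, with mean and SD of 3 arrays. Rps27.1, rplp1, rps26 and rps26l are higher in mutant than in heterozygous eyes at 28 dpf, rps8b, rpl38 and rps16 are lower, and rps20 is higher in mutant eyes at both ages with a small overlap at 28 dpf.

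Genes that build and drive the ribosome were counted in the same way at 28 dpf, with log2 differences in brackets, and are read against the 21.8% of all genes that rose, the 39.0% that fell and the median of -0.09. Of 91 tested genes for ribosome assembly, 6 rose and 54 fell (59.3%, median -0.26), among them utp15 (-1.01), of the particle that processes the small-subunit RNA, and riok1 (-0.88), a kinase of late small-subunit maturation. RNA polymerase I, which makes the ribosomal RNA, had 0 rises and 8 falls among 12 genes (66.7%, median -0.39), with a difference of -0.67 for polr1c, a subunit shared with RNA polymerase III. Initiation factors had 3 rises and 16 falls among 46 (34.8%, median -0.12), a share of falls under that of all genes, with the largest values in eif4g2a (-0.89) and eif4eb (-0.86), which binds the messenger RNA cap. Elongation and termination factors had 2 rises and 6 falls among 14 (42.9%), near the share of all genes, with a difference of -0.53 for abce1, the recycling factor.

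Mitochondrial ribosomal proteins, which belong to a separate ribosome, had 2 rises and 42 falls among 61 tested genes (68.9%, median -0.53), with a difference of -1.27 for mrpl27. Of 16 other genes whose messenger RNAs begin with the pyrimidine run, 2 rose and 2 fell. Rack1, a protein bound to the small subunit, rose by 0.17 ± 0.04 (adjusted p = 0.00429), and the nucleolar npm1a had a difference of -0.56 ± 0.08 (adjusted p = 2.2e-05). The list of mTOR and Myc genes had 15 rises and 20 falls among 48. Its share of falls (41.7%) was near that of all genes, and its share of rises was above the 21.8% of all genes. The largest called differences were falls, among them -1.01 for rptor, the scaffold of the mTOR complex, and -1.04 for lamtor5. After centring on the named probe sets, assembly genes had 17 rises and 30 falls, polymerase I genes 3 and 6, initiation factors 14 and 9, and mitochondrial ribosomal proteins 8 and 33. Of all genes, 41.7% rose and 23.5% fell on that scale, and the median of all genes was 0.11, against 0.08 for the initiation list, which moved with it. The mitochondrial list had a median of -0.33.

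**Figure D4:**
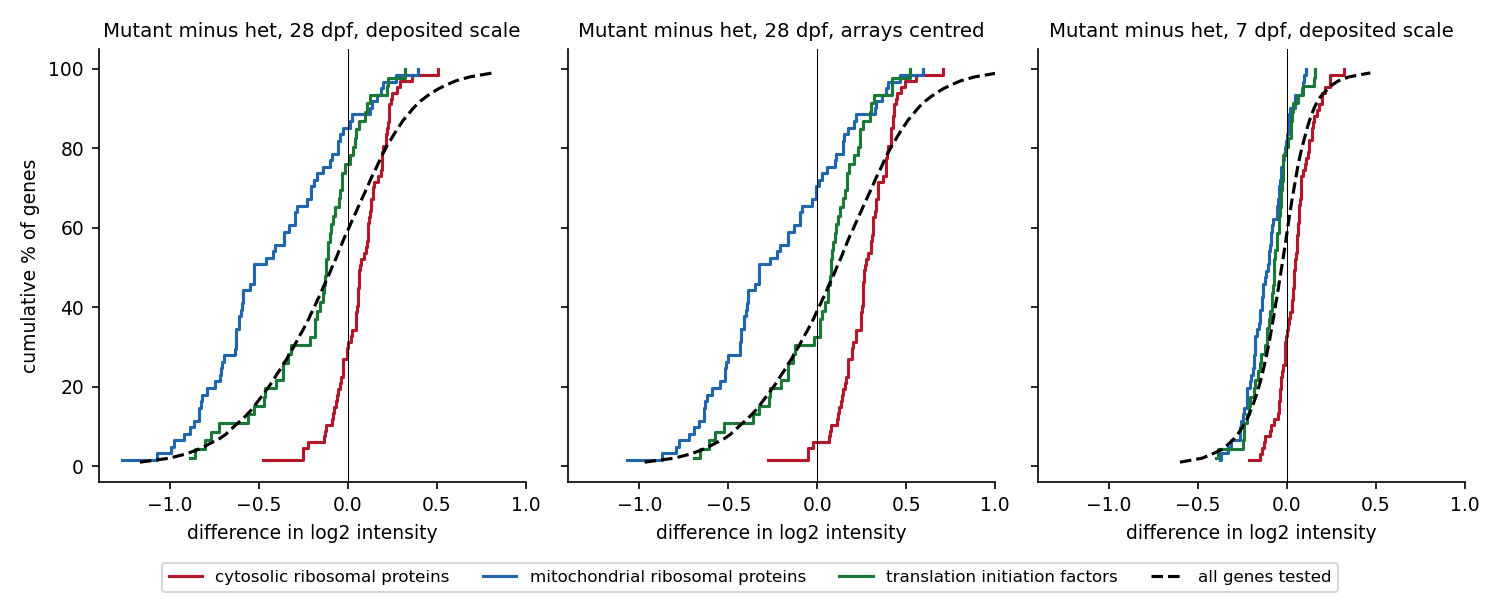
Cumulative share of genes by mutant minus heterozygous difference at 28 dpf as deposited (left), at 28 dpf with arrays centred on the named probe sets (middle) and at 7 dpf as deposited (right). The curve of the cytosolic ribosomal proteins is steep and lies right of that of all genes over most of its length at 28 dpf, with a median of 0.07 against -0.09 as deposited, and the mitochondrial ribosomal proteins lie to the left with a median of -0.53.

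Signals of other cells moved at 28 dpf too. Markers of retinal progenitors and dividing cells averaged 7.74 to 7.90 in mutant eyes, against 8.03 to 8.14 in heterozygous eyes. Of 10 tested 2 rose and 6 fell, beside 21.8% of all genes that rose and 39.0% that fell. The largest called log2 differences of that list were falls, -1.06 for ccna2, -0.80 for cdk1 and -0.47 for pcna, and the 2 rises were smaller. Pigment epithelium markers averaged 9.54 to 9.58 in mutant eyes, against 9.61 to 9.77 in heterozygous eyes. Red blood cell markers (6 of 10 on the array) averaged 8.12 to 8.54 in mutant eyes, against 7.47 to 7.85 in heterozygous eyes. Muscle markers averaged 6.45 to 7.51 in mutant eyes and 7.07 to 7.26 in heterozygous eyes. Of the red blood cell markers 3 rose and 3 fell, beside the same shares of all genes. The 3 rises were the embryonic globins hbae1.1 (3.19), hbae3 (1.46) and hbbe2 (1.37). The list thus did not move as a whole, and its average is not read as a measure of red blood cells. The part of these cell types in the ribosomal protein values was not tested.

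At 7 dpf, 2 of the 67 genes were higher in mutant than in heterozygous eyes and 0 were lower in the limma test, where 4.05% of all genes rose and 8.40% fell (12.4% together). Without adjustment, 10 of the 67 had a p under 0.05, against 25.5% of all genes. The median difference was 0.05, against -0.03 over all genes, and after centring 3 rose and 0 fell, against 5.46% and 7.29% of all genes. Arrays did not overlap for 8 of the 67 genes, 7 above and 1 below, against 30.4% of all genes (11.8% above and 18.6% below). The per-array median of the set overlapped between genotypes, at 9.04, 9.23 and 9.18 in mutant eyes and 9.18, 9.12 and 9.03 in heterozygous eyes.

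The 2 rises at 7 dpf were rps20, a protein of the head of the small subunit, and rpl36a, a large-subunit protein near the site where spent transfer RNA leaves. Rps20 stood at 9.33, 9.54 and 9.47 in mutant eyes, against 9.20, 9.12 and 9.05 in heterozygous eyes, a difference of 0.32 ± 0.08 (adjusted p = 0.0133). Rpl36a stood at 8.99, 8.90 and 9.18 in mutant eyes, against 8.85, 8.75 and 8.72 in heterozygous eyes, a difference of 0.24 ± 0.07 (adjusted p = 0.0384). Neither pair of groups overlapped. The call on rps20 was lost without heterozygous replicate 3 (0.29, adjusted p = 0.0626) or mutant replicate 2 (0.28, adjusted p = 0.0703), and with the mean over its probe sets (0.16, adjusted p = 0.204). The second probe set of rps20 averaged 5.47, under the level set for testing. The call on rpl36a was lost without heterozygous replicates 2 (0.23) or 3 (0.22) or mutant replicates 1 (0.26) or 3 (0.17).

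Rps20 was the only ribosomal protein gene called in both genotype comparisons. At 28 dpf it stood at 8.72, 8.78 and 8.58 in mutant eyes, against 8.41, 8.34 and 8.62 in heterozygous eyes, where a single heterozygous array lay within the mutant range. Across the 67 genes, the 28 dpf and 7 dpf differences had a Pearson correlation of 0.34 and a Spearman correlation of 0.33. This is a description over genes, which are not independent points. The comparisons at the 2 ages use different arrays.

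The genotype differences at the 2 ages were compared with each other in the same fit. In the limma interaction test, for 5 ribosomal protein genes the difference was more positive at 28 than at 7 dpf and for 3 it was more negative, against 18.1% and 29.1% of all genes. The more positive were rps27.1 (0.39), rps26l (0.31), rpl10a (0.27), of the flexible L1 stalk, rpl27a (0.26) and rps6 (0.21), and the more negative were rpl38 (-0.47), rps16 (-0.31) and rpl36a (-0.27). Their shares, 7.46% and 4.48%, were under the background, and the 8 calls compare with 47.2% of all genes. The count of more positive genes was 1 without heterozygous replicate 1 of 7 dpf, and 3, 2 and 2 without heterozygous replicates 2 and 3 and mutant replicate 1 of 28 dpf. With quantile normalization rpl10a (0.21, adjusted p = 0.102), rps6 (0.12, adjusted p = 0.167) and rpl36a (-0.21, adjusted p = 0.116) did not pass. After centring, 28 were more positive and 1, rpl38, more negative, against 32.6% and 17.8% of all genes.

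Rpl38 had the most negative of these values. Its mutant arrays at 7 dpf stood at 8.15, 8.18 and 8.13, against 7.88, 7.98 and 7.95 on heterozygous arrays, which gave a difference of 0.22 ± 0.07 that did not pass (adjusted p = 0.0545). The same gene was lower in mutant eyes at 28 dpf, and the difference between the ages was -0.47 ± 0.10 (adjusted p = 0.0012). Mutant and heterozygous arrays were apart at both ages, in opposite directions, though after centring the 28 dpf value was -0.05 and only the 7 dpf difference (0.25, adjusted p = 0.0292) passed.

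In heterozygous eyes, ribosomal protein transcripts declined with age. Of the 67 genes, 41 were lower at 28 than at 7 dpf and 1 was higher, against 22.1% and 20.9% of all genes, and the median difference was -0.22 against -0.02. The share of falls, 61.2%, was far over the background, while the 42 calls together compare with 43.0% of all genes. The 28 dpf arrays lay wholly above the 7 dpf arrays for 1 gene and wholly below for 44. Of all genes, 27.0% lay above and 29.2% below (56.3% in either direction). Rps20 stood at 8.41, 8.34 and 8.62 at 28 dpf, against 9.20, 9.12 and 9.05 at 7 dpf. Large-subunit genes had 22 falls among 38 and small-subunit genes 19 among 29. The largest falls in the age comparison were rps20 (-0.66 ± 0.08), rps25 (-0.57 ± 0.10), a small-subunit protein used by some viral messenger RNAs, rpl7l1 (-0.53 ± 0.09) and rpl18 (-0.50 ± 0.07). Each had adjusted p of 2.1e-04 or less, and in each the 28 dpf arrays lay wholly below the 7 dpf arrays.

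The counts held on another scale: after centring on the named probe sets 50 fell and 1 rose, against 27.0% and 18.4% of all genes, and the 41 falls were all among the 50. Of the 41, 29 kept their call whichever array was left out. The list of dividing-cell markers averaged 8.03 to 8.14 in heterozygous eyes at 28 dpf, against 8.43 to 8.65 at 7 dpf. Muscle markers averaged 7.07 to 7.26 at 28 dpf, against 5.6 to 6.06 at 7 dpf, red blood cell markers 7.47 to 7.85, against 8.62 to 8.96, and pigment epithelium markers 9.61 to 9.77, against 10.02 to 10.22. Within the red blood cell list the embryonic globins hbae1.1 and hbae3 stood at 6.67 and 6.12 at 28 dpf, against 10.54 and 10.04 at 7 dpf. That list's average is therefore not read as a measure of red blood cells. The part of these cell types in the decline was not tested.

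In mutant eyes 38 genes fell and 3 rose between the ages, against 37.9% and 26.0% of all genes, with a median of -0.18 against -0.06. The share of falls was 56.7%, and the 41 calls together compare with 63.9% of all genes. The ages did not overlap for 44 genes, 2 above and 42 below, against 65.7% of all genes (27.5% above and 38.2% below). The scale moved this comparison more: after centring, 22 fell and 7 rose, against 27.3% and 39.3% of all genes, which themselves shifted by 0.13. Rpl36a (-0.76 ± 0.07), rps20 (-0.76 ± 0.08), rps25 (-0.70 ± 0.10) and rpl38 (-0.57 ± 0.07) fell most. Rps20 stood at 8.72, 8.78 and 8.58 at 28 dpf, against 9.33, 9.54 and 9.47 at 7 dpf, with a wide gap between the ages. Dividing-cell markers averaged 7.74 to 7.90 in mutant eyes at 28 dpf, against 8.36 to 8.58 at 7 dpf, muscle markers 6.45 to 7.51, against 6.05 to 6.26, red blood cell markers 8.12 to 8.54, against 8.44 to 8.72, and pigment epithelium markers 9.54 to 9.58, against 9.72 to 9.86. Within the red blood cell list hbae3 and hbae1.1 stood at 7.58 and 9.86 at 28 dpf, against 10.03 and 10.41 at 7 dpf. The globin hbbe2 went the other way, at 8.65 against 7.97. The average of that list is again not read as a measure of red blood cells. The part of these cell types in these values was not tested.

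The same 31 genes fell in both genotypes, which is 81.6% of the 38 in mutant eyes and 75.6% of the 41 in heterozygous eyes. Over all genes the shared falls made up 31.7% and 54.3% of each list. Falls were rarer there to begin with, at 37.9% of all genes in mutant and 22.1% in heterozygous eyes. A larger overlap among the ribosomal protein genes follows in part from their more frequent falls, so these shares are not a like comparison. After centring on the named probe sets, 22 of the 38 falls in mutant eyes kept their call. Across the 67 genes the 2 age differences had a Pearson correlation of 0.70 and a Spearman correlation of 0.63, against 0.52 and 0.37 over all genes, again as descriptions. The age comparisons of the 2 genotypes use different arrays.

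**Figure D5:**
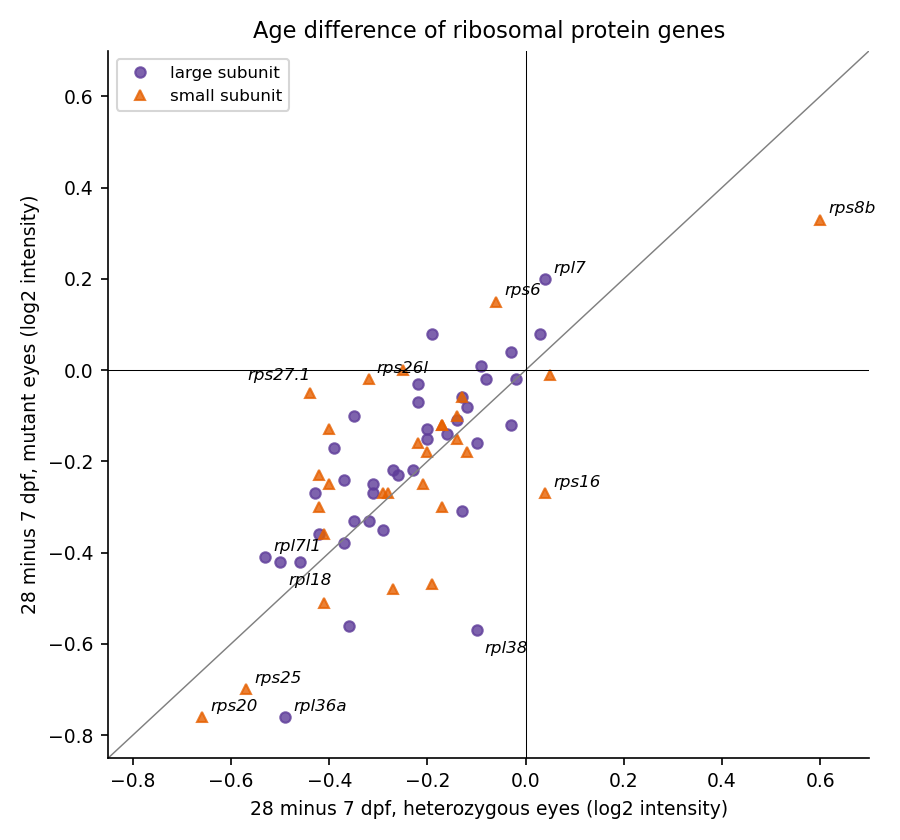
Age difference (28 minus 7 dpf, log2 intensity) of each of the 67 ribosomal protein genes in mutant eyes (vertical) against heterozygous eyes (horizontal), with the line of equality. Most genes lie below 0 on both axes, rps8b lies apart above 0 on both, and rps27.1 and rps26l fell in heterozygous eyes with values near 0 in mutant eyes.

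Besides the 31 genes that fell in both genotypes, 16 passed in neither, 10 fell in heterozygous eyes without passing in mutant eyes, and 7 fell in mutant eyes without passing in heterozygous eyes. A further 3 rose in mutant eyes, and 1 of them also in heterozygous eyes. That gene, rps8b, rose with age in heterozygous eyes, to 8.98, 8.84 and 8.77 at 28 dpf, against 8.19, 8.19 and 8.42 at 7 dpf, a difference of 0.60 ± 0.11 (adjusted p = 4.4e-04). In mutant eyes it rose by 0.33 ± 0.11 (adjusted p = 0.016), with ages that overlapped, and that call was lost without mutant replicate 1 of 28 dpf (0.20, adjusted p = 0.106) or replicate 3 of 7 dpf (0.25, adjusted p = 0.0798). Rpl7 (0.20, adjusted p = 0.002) and rps6 (0.15, adjusted p = 0.0161), the target of the S6 kinases, rose in mutant eyes and did not pass in heterozygous eyes (0.04 and -0.06). With quantile normalization neither passed in mutant eyes (rpl7 0.06, adjusted p = 0.311, and rps6 0.06, adjusted p = 0.356), while after centring on the named probe sets both rose (0.33 and 0.29). The limma test of the difference between the genotypes' age changes did not pass for rpl7 on the deposited scale (0.16, adjusted p = 0.0707). After centring on the named probe sets it passed (0.32, adjusted p = 6.3e-04). The call on rps6 was lost without mutant replicate 1 (0.14, adjusted p = 0.0528) or 3 (0.14, adjusted p = 0.0531) of 28 dpf.

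Rps27.1, rps26l and rpl27a had falls with age in heterozygous eyes (-0.44, -0.32 and -0.35) and values of -0.05, -0.02 and -0.10 that did not pass in mutant eyes. For these 3 genes the test of the difference between the age changes is the interaction given above, which they passed. Rps16 and rpl38 had the mirror pattern, with falls of -0.27 and -0.57 in mutant eyes and values of 0.04 and -0.10 that did not pass in heterozygous eyes.

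Rpl5b and rpl11, which together with a small ribosomal RNA bind and restrain the p53 regulator Mdm2, fell with age in both genotypes, by 0.22 and 0.38 in mutant eyes and by 0.23 and 0.37 in heterozygous eyes. The fall of rpl11 is that of its brightest probe set. Its second probe set, which averaged 5.97 and so lay near the level set for testing, rose with age. The mean over its probe sets had 0.09 in mutant and 0.14 in heterozygous eyes. After centring, rpl5b in mutant eyes had -0.08 (adjusted p = 0.231). On the deposited scale neither passed in a genotype comparison: rpl5b had 0.06 at 28 dpf and 0.05 at 7 dpf, and rpl11 had 0.06 and 0.08. After centring both rose at 28 dpf, rpl5b by 0.26 (adjusted p = 0.00112) and rpl11 by 0.26 (adjusted p = 0.00308). Rpl22l1, the paralogue of rpl22, likewise fell with age (-0.33 in mutant and -0.35 in heterozygous eyes) and did not pass for genotype at either age on the deposited scale, while after centring it rose at 28 dpf (0.25, adjusted p = 0.0151). Rpl39, of the wall of the peptide exit tunnel, had 0.19 ± 0.09 at 28 dpf without passing (adjusted p = 0.0705), and rose after centring (0.39, adjusted p = 0.00166).

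Rpl6 stood at 11.99, 12.01 and 11.99 in mutant eyes at 28 dpf, against 11.87, 11.86 and 11.91 in heterozygous eyes, groups that did not overlap although the difference was 0.12 ± 0.04 (adjusted p = 0.0183). On the deposited scale rpl3 had 0.05 ± 0.06 and rps2 had 0.07 ± 0.05 at 28 dpf, and neither passed. After centring on the named probe sets both rose in the limma fit, rpl3 by 0.25 (adjusted p = 0.00154) and rps2 by 0.27 (adjusted p = 1.2e-04).

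There were 3 genes too dim to be tested: rpl13a, rpl26 and rps27l, with means of 5.64, 5.62 and 5.61 over the 12 arrays. When every gene was tested regardless of brightness, rpl13a had a difference of 0.44 ± 0.10 at 28 dpf (adjusted p = 0.00168), at 5.78, 5.84 and 5.70 in mutant eyes, against 5.45, 5.21 and 5.35 in heterozygous eyes. Probe sets that list more than 1 gene were read from a separate limma fit, with adjustment over all 75212 probe sets. Their adjusted p are therefore not like those of the genes tested. In that fit a brighter probe set that lists rpl13a together with commd9 had 0.15 ± 0.14 and did not pass (adjusted p = 0.506). Another that lists rpl26 together with sbno2a had 0.11 ± 0.08 (adjusted p = 0.341). Rpl5a with foxp2 (0.08), rpl7a with med22 (0.10), rpl12 with smarca4a (-0.03), rpl4 with map2k1 (0.08), rpl32 with ctdsp1 (0.15) and rps23 with nup160 (0.20) did not pass at 28 dpf in that fit, as joint values of both genes. A further probe set that lists med22 and rpl7a fell in it, by 0.52 on the log2 scale with an SE of 0.12 (adjusted p = 0.00711). The probe set that stands for rpl7a rose in the fit over genes, and had 0.27 (adjusted p = 0.109) in the fit over all probe sets.

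For 16 genes more than 1 probe set was named, and the brightest stood for the gene. The second probe set of rpl11 rose with age, by 0.56 ± 0.11 in mutant eyes (adjusted p = 0.00249 over all probe sets) and by 0.65 ± 0.11 in heterozygous eyes (adjusted p = 0.00206), opposite to the brightest. The second probe set of rpl37, named here after its values were seen, averaged 7.01 ± 0.06 in mutant eyes and 7.77 ± 0.13 in heterozygous eyes at 28 dpf (SD, n = 3 each). The difference was -0.77 with adjusted p = 5.8e-05 in the limma fit over all probe sets. The platform's annotation gives that second probe set a symbol but no Entrez gene identifier. The brightest probe set of rpl37, which has an identifier, had 0.12 ± 0.07 and did not pass. Which transcript each probe set reads, and whether near-identical paralogues share a signal, was not tested.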

How the data were processed

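The authors deposited log2 intensities per probe set, made with Affymetrix Expression Console and RMA per the submitters' processing notes (no version). The labelling protocol names another array type, and probe sets were named through the platform's own annotation table. The build behind the probe sets and any batch are unstated in the material used, and positions are therefore omitted. Of 75212 probe sets, 20806 had 1 symbol; the brightest per gene was used. A gene was tested if it exceeded the 33rd percentile of named probe sets (6.14 to 6.26) on 3 or more arrays. All 12 arrays entered a single limma 3.58.1 fit (R 4.3.3; lmFit, 1 mean per group, eBayes with trend, 8 residual degrees of freedom), with Benjamini-Hochberg adjustment over 14002 genes. The fit was tested on simulated data. Second probe sets of a gene and probe sets that list several genes were read from a separate limma fit, with adjustment over all probe sets. Precision is limited by array number; a difference had a median SE of 0.08. The members, gene lists, tests and alternatives were chosen with earlier results of these data known. Named genes were the largest called differences (up to 6 each way per genotype comparison and interaction, 4 per age comparison), the 4 brightest and 4 dimmest, stalk, Mdm2-binding and paralogue genes, and those whose probe sets disagree; from other lists, up to 3 genes. Other members, and rpl37, were named after their values were seen. The labels do not say whether replicate numbers pair the pools, and the main fit did not pair them.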

Additional observations from a re-analysis of the deposited data

Results flagged for a closer look

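The genotype difference itself differed between 28 and 7 dpf for 8 ribosomal protein genes in the interaction test of the limma fit. It was more positive at 28 dpf for rps27.1 (0.39, adjusted p = 0.0332), rps26l (0.31, adjusted p = 0.00353), rpl10a (0.27, adjusted p = 0.048), rpl27a (0.26, adjusted p = 0.0218) and rps6 (0.21, adjusted p = 0.0257). It was more negative for rpl38 (-0.47, adjusted p = 0.0012), rps16 (-0.31, adjusted p = 0.00449) and rpl36a (-0.27, adjusted p = 0.0433).

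Rps26l, rpl38 and rps16 kept their call whichever array was left out. Rpl27a lost it without heterozygous replicate 2 of 28 dpf (0.20, adjusted p = 0.0649) or heterozygous replicate 1 of 7 dpf (0.23, adjusted p = 0.0541). Rps27.1 stood at 0.28 to 0.39 and rps6 at 0.17 to 0.20 in the fits that lost their calls, which left out arrays of both ages. Rpl10a stood at 0.20 to 0.29 and rpl36a at -0.29 to -0.19 in theirs. After centring on the named probe sets, rps16 (-0.14, adjusted p = 0.125) and rpl36a (-0.10, adjusted p = 0.466) did not pass, and the other 6 did. With quantile normalization rpl10a (0.21, adjusted p = 0.102), rps6 (0.12, adjusted p = 0.167) and rpl36a (-0.21, adjusted p = 0.116) did not pass. With the mean over probe sets rps26l had 0.27 (adjusted p = 0.0919), where its second probe set averaged 5.36, under the level set for testing.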

How the results depend on the processing

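Counts of ribosomal protein genes called depended most on the scale of the arrays. With arrays centred on the named probe sets, 52 rose and 1 fell at 28 dpf, 28 and 1 in the interaction, and 7 and 22 with age in mutant eyes. With quantile normalization over the tested genes, 27 rose at 28 dpf, 4 at 7 dpf and 1 with age in mutant eyes. That setting moved the median of all genes by 0.10 at 28 dpf. In its limma fit rps8b (adjusted p = 0.00454) and rps16 (adjusted p = 0.00412) kept their falls at 28 dpf, and rpl38 (-0.08, adjusted p = 0.362) did not. Centred on the ribosomal protein genes, 3 rose at 28 dpf and 0 at 7 dpf, 1 rose and 1 fell in the interaction, 11 rose and 7 fell with age in mutant eyes, and 6 rose and 6 fell with age in heterozygous eyes. With every probe set on its own, 8 rose at 28 dpf, 0 at 7 dpf and 1 in the interaction; with the mean over probe sets 1 rose at 7 dpf; without the variance trend 1 rose at 7 dpf and 3 in the interaction. At adjusted p under 0.01, rises numbered 7 at 28 dpf, 0 at 7 dpf, 1 in the interaction and 1 with age in mutant eyes. Leaving out each array gave 10 to 19 rises and 3 to 4 falls at 28 dpf, 0 to 4 rises and 0 falls at 7 dpf, 1 to 6 rises and 2 to 4 falls in the interaction, 1 rise and 32 to 43 falls with age in heterozygous eyes, and 1 to 3 rises and 31 to 38 falls in mutant eyes. Values reversed for rpl5b with age when centred on the ribosomal protein genes (0.02 in mutant, 0.01 in heterozygous eyes), and with the mean over probe sets for rpl11 (0.09 and 0.14) and for rps26 in mutant eyes (0.08). The second probe sets of rpl11 and rps26 averaged 5.97 and 5.28, near or under the level set for testing. Deviations of same-numbered arrays from their group means had correlations of -0.07 to 0.12 at 7 dpf and 0.09 to 0.14 at 28 dpf. For differently numbered arrays they were -0.14 to 0.10 at 7 dpf and -0.09 to -0.01 at 28 dpf. At 28 dpf the same-numbered values were thus small but all higher, and whether the numbers pair the pools was not tested. The replicate block within age gave 21 rises and 3 falls at 28 dpf, 2 and 0 at 7 dpf, and 5 and 3 in the interaction; across the 4 groups, added after seeing the data, it gave 1 and 43 with age in heterozygous eyes and 3 and 38 in mutant eyes. Of 62 named values, the call was the same for 60 with no filter and 56 with quantile normalization. It was the same for 50 without mutant replicate 1 of 28 dpf and 45 with every probe set on its own. At adjusted p under 0.01 it was the same for 43, and for 22 when centred on the ribosomal protein genes. The cause was not tested where a setting changed a count. Most counts in this paragraph stand without the share of all genes under the same setting, and they are not read as results about the ribosomal protein genes. Signal over background kept 3 of the 70 genes out of the tests.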
